A study of Mus musculus with 7 samples.

Results

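The genes described here make, sense, move and modify sterols and fatty acids. They were 37 genes chosen by name, and 34 of them had an array probe set annotated with their symbol alone, out of 18193 such genes on the arrays. Acat2, Nr1h2 and Soat1 are not analysed here. Each gene was read from the probe set with the highest mean signal over the 7 arrays. No threshold on a measured value entered the choice.

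RNA levels of macrophages derived from mouse bone marrow were read on Affymetrix arrays, with 1 culture and 1 array in each of 7 groups. The study asked which genes the bacterial products MDP and Pam3CSK4 induce in naive macrophages, and which respond less in macrophages that have met a product before. MDP, muramyl dipeptide, is a fragment of bacterial cell walls sensed in the cytosol through NOD2, and Pam3CSK4 is a synthetic lipopeptide sensed by the Toll-like receptors TLR2 and TLR1. Cultures pretreated for 24 h with Pam3CSK4 at 1 mg/ml then received Pam3CSK4 at 1 mg/ml or MDP at 10 mg/ml for 3 h, and cultures pretreated for 24 h with MDP at 10 mg/ml received the same second ligands. Naive cultures stood for 24 h without ligand and then received MDP, Pam3CSK4 or nothing (unstimulated) for 3 h. Doses are given as the labels print them, and whether mg/ml is the unit used could not be checked. No pretreated culture was left without a second ligand, so a state left by 24 h of pretreatment and a response to the second ligand cannot be told apart. Every label carries replicate number 2. Each difference is between 2 single arrays, has no replicate check and carries no p-value.

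Cholesterol is built from acetyl-CoA through mevalonate, squalene and lanosterol by a chain of enzymes of the cytosol, endoplasmic reticulum and peroxisome. When sterols in the endoplasmic reticulum are low, SCAP escorts the SREBP transcription factors to the Golgi, where they are cut and freed to raise the genes of sterol and fatty acid synthesis; when sterols are high, the INSIG proteins hold SCAP back. Oxysterols add a second arm: they activate the LXR nuclear receptors, which raise genes of cholesterol export, and 25-hydroxycholesterol, made by CH25H in stimulated macrophages, also keeps SREBP in the endoplasmic reticulum.

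All 6 macrophage markers examined (Adgre1, Csf1r, Cd68, Lyz2, Itgam and Mertk) lay above the array median on all 7 arrays, but some moved. Against the unstimulated array, Mertk differed by -2.29 with naive Pam3CSK4, -1.18 with naive MDP and -1.79 with MDP then Pam3CSK4. With Pam3CSK4 then Pam3CSK4 and Pam3CSK4 then MDP, Itgam differed by 1.27 and 1.27 and Adgre1 by 0.92 and 0.94. Csf1r, Cd68 and Lyz2 differed by -0.30 to 0.05 on every array. Of the markers of T and NK cells 2 of 4 lay above the array median on every array, of dendritic cells 1 of 3, and of B cells 0 of 2 except for 1 on the MDP then Pam3CSK4 array. Markers of stromal cells, adipocytes and hepatocytes lay below it on every array. Of 4 neutrophil markers measured, 3 lay above it on every array and Mpo on none, and the summed linear signal of the 4 was 7275 and 7510 on the Pam3CSK4-pretreated arrays, against 3682 to 4844 on the other 5. S100a8 and S100a9 carried that sum: on the Pam3CSK4 then Pam3CSK4 and Pam3CSK4 then MDP arrays they stood 1.10 and 1.12, and 0.82 and 0.91, above the unstimulated array, while Elane differed by 0.05 and 0.03 and Mpo by 0.33 and 0.31. Their part in the results below was not tested, and in whole cultures fewer cells of a type and less RNA per cell cannot be told apart. The median log2 signal of the 18S ribosomal control probe sets was 10.92 on the Pam3CSK4 then Pam3CSK4 array, against 8.94 to 9.29 on the other 5 ligand-treated arrays and 8.57 on the unstimulated array. That array differed from the Pam3CSK4 then MDP array by -0.68 for Ch25h to 0.18 for Scd2 over the 34 genes. Of them 0 were past 2-fold in either direction, beside 0% of all genes higher and 0.0055% lower. Ch25h, 1.61-fold lower, lay outside the 1st to 99th percentile of all genes, -0.36 to 0.37.

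Of the 34 genes 10 were at least 2-fold apart in at least 1 of 13 comparisons, 19 at least 1.5-fold, and 15 stayed under 1.5-fold in all 13. The same counts were not made over all genes, so they do not set the 34 genes apart. Shares over all genes are given below for single comparisons. Ch25h stood higher after a first ligand and higher again after MDP then Pam3CSK4, and lower when MDP followed MDP or Pam3CSK4 followed Pam3CSK4. Mylip, Scd2 and Dhcr7 stood lower after a first dose of Pam3CSK4 but not after a second. Scd1 stood 5.36-fold and 5.45-fold higher on both Pam3CSK4-pretreated arrays than on the naive arrays with the same ligand (MDP and Pam3CSK4), while several enzymes of sterol synthesis stood lower there.

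A difference counted as past 2-fold when it was at least 1 on the log2 scale. In naive cells given MDP, against unstimulated cells, 2 of the 34 genes were past 2-fold higher and 0 lower, beside 0.583% of all genes higher and 0.17% lower. In naive cells given Pam3CSK4, against unstimulated cells, 2 were higher and 3 lower, beside 2.27% and 1.95% of all genes. In MDP-pretreated cells, MDP gave 0 higher and 1 lower than in naive cells given MDP, beside 0.385% and 0.291%, and Pam3CSK4 gave 1 higher and 0 lower than in naive cells given Pam3CSK4, beside 0.297% and 0.022%. In Pam3CSK4-pretreated cells, MDP gave 1 higher and 2 lower than in naive cells given MDP, beside 2.14% and 1.71%, and Pam3CSK4 gave 4 higher and 1 lower than in naive cells given Pam3CSK4, beside 2.41% and 2.3%. With 34 genes, 1 gene is 2.94%, so counts of 0 to 1 do not stand apart from these shares, and the 4 genes higher on the Pam3CSK4 then Pam3CSK4 array made up 11.8%. Many genes on the arrays give little signal. Among the 11939 genes above the array median on at least 1 array of that pair, 3.63% were past 2-fold higher. The 4 genes were Scd1, Scd2, Dhcr7 and Mylip. Scd2, Dhcr7 and Mylip were also the 3 lower in naive Pam3CSK4 against unstimulated cells, so both counts rest on the same naive Pam3CSK4 array. Against unstimulated cells the Pam3CSK4 then Pam3CSK4 array differed by 2.66 for Scd1, 1.04 for Scd2, 0.51 for Dhcr7 and -0.15 for Mylip.

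The medians of the 34 differences stayed near 0. They were -0.02 for MDP then MDP against naive MDP, 0.01 for Pam3CSK4 then MDP against naive MDP and 0.09 for Pam3CSK4 then Pam3CSK4 against naive Pam3CSK4. The furthest was -0.18, for naive Pam3CSK4 against unstimulated cells, where 27 of 34 genes lay below 0 beside a median of 0 over all genes.

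**Figure D1:**
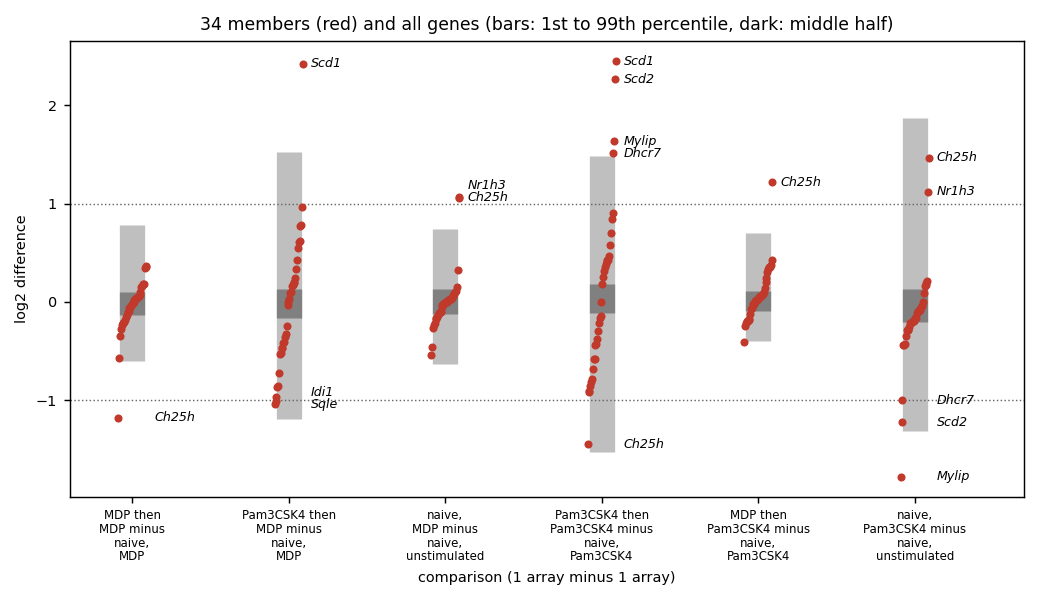
Log2 differences of the 34 genes (red points, genes past 2-fold named) in 6 comparisons of single arrays, over bars for all 18193 genes; the light bar spans the 1st to 99th percentile, the dark bar the quartiles, and dotted lines mark 2-fold. Scd1 lies at 2.42 and 2.45 in the comparisons of Pam3CSK4-pretreated with naive cells, and the medians of the 34 genes stay between -0.18 and 0.09 in all 6.

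Sterol synthesis was represented by 16 genes. In naive cells given Pam3CSK4 15 of the 16 lay below the unstimulated level, with a median difference of -0.21, but only Dhcr7 was past 2-fold. In the same comparison 9059 of all 18193 genes lay below 0. Of the 45 other lipid genes described below 33 did, with a median of -0.19, so a lower level was not particular to sterol synthesis. After Pam3CSK4 pretreatment the chain did not move as a block, and direction did not follow the order of the steps. Against naive cells with Pam3CSK4 and with MDP, 8 genes lay below 0 in both comparisons: Hmgcs1, Idi1, Fdft1, Sqle, Cyp51, Hsd17b7, Ebp and Sc5d. Mvk, Pmvk, Fdps, Lss, Tm7sf2, Nsdhl and Dhcr7 lay above 0 in both, and Mvd was at 0 and -0.04. With MDP, Fdps at 0.09 and Nsdhl at 0.02 lay between the quartiles of all genes, -0.16 and 0.13. Against unstimulated cells the Pam3CSK4 then Pam3CSK4 array differed by 0.07 for Fdps, -0.02 for Lss and 0.05 for Nsdhl. It differed by 0.13 to 0.56 for Mvk, Pmvk, Tm7sf2 and Dhcr7. Against naive cells the widest differences were those of Sqle, Idi1, Hmgcs1 and Cyp51 below 0 and of Dhcr7 and Tm7sf2 above it. Promoters are shown for those of these 6 genes with exactly 1 window in the promoter table used here (RefSeq, GRCm38.p6, 250 bases before to 50 after the start, 5′ to 3′ on the gene's strand). They are Hmgcs1 (chr13:119690101-119690400, plus strand), Idi1 (chr13:8885356-8885655, plus strand), Cyp51 (chr5:4104648-4104947, minus strand) and Tm7sf2 (chr19:6067801-6068100, minus strand). Capitals mark any match, on either strand, to the sterol regulatory element core TCACNCCAC, the NF-Y box CCAAT, the GC box GGGCGG, the E-box CACGTG, the interferon response element core TTTCNNTTT or the NF-kB site GGGANTTCC. None of these motifs contains another.
Hmgcs1: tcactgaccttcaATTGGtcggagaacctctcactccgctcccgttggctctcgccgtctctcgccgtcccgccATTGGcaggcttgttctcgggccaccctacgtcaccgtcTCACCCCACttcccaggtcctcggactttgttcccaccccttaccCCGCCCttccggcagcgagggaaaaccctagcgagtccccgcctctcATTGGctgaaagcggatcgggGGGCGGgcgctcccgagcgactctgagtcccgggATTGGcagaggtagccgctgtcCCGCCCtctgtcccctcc
Idi1: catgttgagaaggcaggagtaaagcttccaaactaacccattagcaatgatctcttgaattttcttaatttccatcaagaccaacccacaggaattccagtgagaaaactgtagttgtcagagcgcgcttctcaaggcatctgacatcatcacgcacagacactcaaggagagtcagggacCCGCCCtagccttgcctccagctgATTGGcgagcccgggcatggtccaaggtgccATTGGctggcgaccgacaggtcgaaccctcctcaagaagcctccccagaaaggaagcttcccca
Cyp51: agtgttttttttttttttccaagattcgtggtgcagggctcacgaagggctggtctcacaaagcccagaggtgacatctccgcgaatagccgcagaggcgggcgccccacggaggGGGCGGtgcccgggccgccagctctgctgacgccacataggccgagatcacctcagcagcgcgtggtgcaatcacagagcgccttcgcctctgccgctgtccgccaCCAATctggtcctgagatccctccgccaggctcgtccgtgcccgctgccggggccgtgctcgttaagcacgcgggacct
Tm7sf2: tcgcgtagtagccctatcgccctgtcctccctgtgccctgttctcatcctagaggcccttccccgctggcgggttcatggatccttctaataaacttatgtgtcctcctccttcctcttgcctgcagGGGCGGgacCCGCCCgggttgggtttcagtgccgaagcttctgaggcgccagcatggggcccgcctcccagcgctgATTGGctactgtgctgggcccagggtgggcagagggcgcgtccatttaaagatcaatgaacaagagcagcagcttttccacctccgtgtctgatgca
Dhcr7 had several windows and Sqle is named only. The Hmgcs1 window held 1 TCACNCCAC match, 4 CCAAT and 3 GGGCGG. Tm7sf2, whose difference ran the other way, held 1 CCAAT and 2 GGGCGG, Idi1 held 2 and 1, and Cyp51 held 1 of each. Of the 34 genes 27 matched a promoter window, among them 13 synthesis genes. Some genes have several windows. CCAAT was in 13 of 16 windows of synthesis genes and 21 of 38 windows of all 27 genes, against 37.4% of all 32851 windows. GGGCGG was in 13 of 16 and 24 of 38, against 35.7%. TCACNCCAC was in 1 of 38 windows, that of Hmgcs1, against 1.24% of all windows. CACGTG was in 3 of 16 and 7 of 38, against 7.15%, TTTCNNTTT in 2 of 16 and 4 of 38, against 10.6%, and GGGANTTCC in 0 of 38, against 1.68%. A match is a run of letters and does not show binding.

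Sqle encodes squalene epoxidase, which adds the first oxygen on the way to lanosterol. Its level was 10.65 on the Pam3CSK4 then Pam3CSK4 array and 10.78 on the Pam3CSK4 then MDP array, 11.31 on the MDP then Pam3CSK4 array and 11.69 on the MDP then MDP array, 11.56 and 11.83 on the naive arrays with Pam3CSK4 and MDP, and 11.77 on the unstimulated array (all log2 signal). The Pam3CSK4-pretreated arrays were the lowest of the 7. Against naive cells with the same second ligand the differences were -0.91 with Pam3CSK4 and -1.04, or 2.06-fold lower, with MDP.

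Idi1 encodes isopentenyl diphosphate isomerase, which interconverts the isoprene units that are joined into squalene. Its level was 10.29 and 10.24 after Pam3CSK4 pretreatment followed by Pam3CSK4 and MDP, 11.11 and 10.99 after MDP pretreatment followed by the same ligands, 11.19 and 11.26 in naive cells given them, and 11.26 in unstimulated cells. Again the Pam3CSK4-pretreated arrays lay apart from the other 5, which lay between 10.99 and 11.26. The differences were -0.90 with Pam3CSK4 and -1.01 with MDP, and the -1.01 fell short of 2-fold under 3 of the alternative settings, at -0.98 to -0.996.

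Hmgcs1, the cytosolic enzyme that makes HMG-CoA, was at 11.52 and 11.48 on the arrays pretreated with Pam3CSK4 and at 12.02 to 12.34 on the other 5. Cyp51, lanosterol demethylase, was at 9.66 and 9.69 there and at 10.23 to 10.55 elsewhere. Neither passed 2-fold, with differences of -0.79 and -0.73 for Hmgcs1 and -0.58 and -0.86 for Cyp51 (Pam3CSK4 and MDP as second ligand). All 4 Hmgcs1 probe sets above the array median gave the same sign, from -0.79 to -0.61 with Pam3CSK4. A dimmer one lay below the array median on both arrays of that comparison, so its -1.10 is not read. The probe sets of Cyp51 and of Sc5d, lathosterol oxidase, disagreed in size or sign. With MDP as second ligand the 3 of Cyp51 gave -0.86, -1.21 and -0.32. The 3 of Sc5d gave -0.33, -1.30 and 0.13. For each gene the first was the brightest. Values of these 2 genes are therefore uncertain. Over the 34 genes and 13 comparisons, probe sets of 1 gene that lay above the array median shared a sign in 117 of 185 cases.

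Dhcr7 encodes the reductase of the last step of one branch, which turns 7-dehydrocholesterol into cholesterol. Its level was 8.77 and 8.78 after Pam3CSK4 pretreatment followed by Pam3CSK4 and MDP, 7.61 and 8.35 after MDP pretreatment followed by the same ligands, 7.26 and 8.0 in naive cells given them, and 8.26 in unstimulated cells. The naive Pam3CSK4 and MDP then Pam3CSK4 arrays were the lowest of the 7, and the Pam3CSK4-pretreated arrays the highest. Naive Pam3CSK4 cells were 2.00-fold lower than unstimulated cells (-1.0), a value that lay at -0.87 to -0.96 under 4 alternative settings. Pam3CSK4 then Pam3CSK4 was 2.86-fold above naive Pam3CSK4. Tm7sf2, a sterol reductase acting after Cyp51, stood at 9.66 and 9.71 in Pam3CSK4-pretreated cells and at 8.82 to 9.15 on the other 5 arrays.

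**Figure D2:**
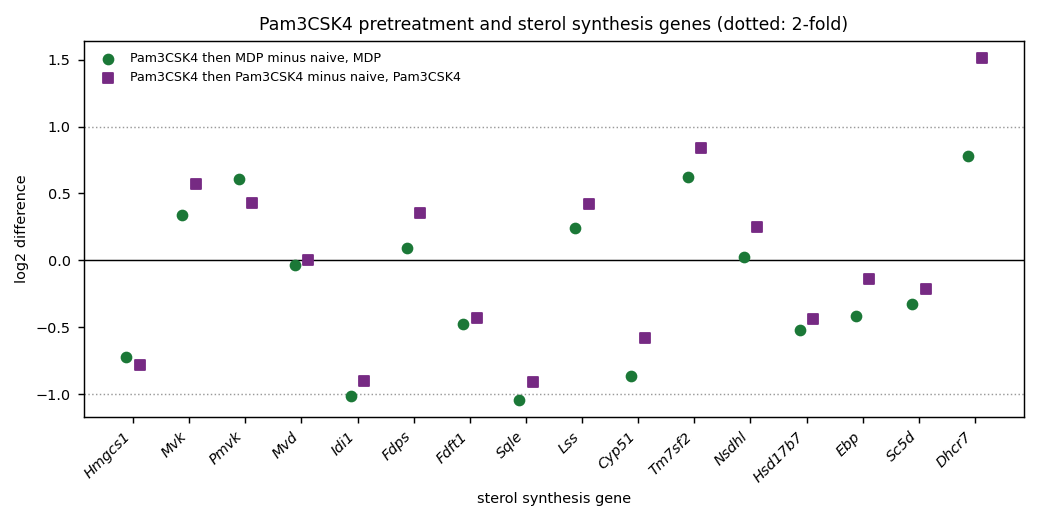
Log2 differences between Pam3CSK4-pretreated and naive cells given the same second ligand (circles MDP, squares Pam3CSK4) for the 16 sterol synthesis genes in pathway order, with 2-fold as dotted lines and 1 array on each side. In both comparisons 8 genes lie below 0 and 7 above it, early and late steps on both sides, from Sqle at -1.04 to Dhcr7 at 1.51.

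No gene of the SREBP machinery passed 2-fold in any of the 13 comparisons. Srebf1, which encodes SREBP-1, was at 10.18 and 10.17 in Pam3CSK4-pretreated cells, 10.06 and 10.05 in MDP-pretreated cells, 10.00 and 10.00 in naive cells (Pam3CSK4 and MDP each time), and 10.18 in unstimulated cells. Srebf2, which encodes the sterol gene activator SREBP-2, was at 9.38 and 9.51, 9.81 and 9.50, 9.67 and 9.51, and 9.48 in the same order. A second Srebf2 probe set of like brightness differed by -0.54 between Pam3CSK4 then MDP and naive MDP, while the levels just given were both 9.51, and the Srebf2 values are uncertain. The probe sets do not report the cut form of the proteins.

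Insig1, an SREBP target as well as a brake on SCAP, was at 10.51 and 10.58 after Pam3CSK4 pretreatment followed by Pam3CSK4 and MDP. It was at 10.67 and 10.86 after MDP pretreatment, 10.88 and 10.83 in naive cells given these ligands, and 10.98 in unstimulated cells. The whole span was 0.48 log2 units. Scap stood at 9.26 and 9.27 in Pam3CSK4-pretreated cells and at 9.80 to 10.08 on the other arrays, without passing 2-fold, and Insig2 at 9.33 and 9.44 against 9.02 to 9.20. The 3 Insig2 probe sets disagreed in sign against unstimulated cells. They ran from -0.12 to 0.15 for Pam3CSK4 then Pam3CSK4 and from -0.04 to 0.26 for Pam3CSK4 then MDP, and the Insig2 values are uncertain. Stard4, which carries cholesterol between membranes, was lower on the Pam3CSK4-pretreated arrays, at 9.06 and 9.03, against 9.44 to 9.90 elsewhere.

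Nr1h3 encodes LXR alpha. Its level was 10.44 and 10.47 after Pam3CSK4 pretreatment followed by Pam3CSK4 and MDP, 10.33 and 9.36 after MDP pretreatment followed by the same ligands, 9.97 and 9.92 in naive cells given them, and 8.85 in unstimulated cells. Every ligand-treated array lay above the unstimulated one, with MDP then MDP nearest to it. The folds over unstimulated were 2.17 for naive Pam3CSK4 and 2.10 for naive MDP, 3.01 and 3.06 after Pam3CSK4 pretreatment, and 1.42 for MDP then MDP.

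Against unstimulated cells the cholesterol exporters moved less than Nr1h3 on every ligand-treated array. Abca1, which loads lipid onto apolipoprotein A-I, was at 13.11 and 12.94 in Pam3CSK4-pretreated cells, 12.70 and 12.63 in MDP-pretreated cells, 12.68 and 12.84 in naive cells (Pam3CSK4 and MDP each time) and 12.52 in unstimulated cells. Abcg1, which exports to high density lipoprotein, was at 11.40 and 11.32, 10.79 and 10.90, 10.49 and 10.55, and 10.68 in the same order. The Pam3CSK4-pretreated arrays were the highest for both, by 0.90 and 0.77 over naive cells with the same ligand for Abcg1. In those comparisons Abcg1 moved more than Nr1h3, which differed by 0.47 and 0.54. None of these differences passed 2-fold. A dimmer Abca1 probe set, still above the array median, was 1.10 higher with Pam3CSK4 then Pam3CSK4 than in unstimulated cells and 0.83 higher than with naive Pam3CSK4, against 0.59 and 0.43 for the brightest one.

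Apoe, the apolipoprotein that macrophages secrete with exported cholesterol, went the other way from the exporters. It stood at 13.37 and 13.34 in Pam3CSK4-pretreated cells, against 14.04 to 14.34 on the other 5 arrays. The difference from unstimulated cells was -1.0 with MDP as the second ligand (2.00-fold lower) and -0.97 with Pam3CSK4. Lpcat3, which puts polyunsaturated chains into membrane phospholipids, ranged from 10.12 to 10.52 over all 7 arrays.

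Mylip encodes IDOL, a ubiquitin ligase and LXR target that marks lipoprotein receptors for breakdown and so limits uptake. Its promoter is shown because the gene had the largest drop of the 34 after a first dose of Pam3CSK4 (chr13:45389492-45389791, plus strand, GRCm38.p6, capitals as above).
Mylip: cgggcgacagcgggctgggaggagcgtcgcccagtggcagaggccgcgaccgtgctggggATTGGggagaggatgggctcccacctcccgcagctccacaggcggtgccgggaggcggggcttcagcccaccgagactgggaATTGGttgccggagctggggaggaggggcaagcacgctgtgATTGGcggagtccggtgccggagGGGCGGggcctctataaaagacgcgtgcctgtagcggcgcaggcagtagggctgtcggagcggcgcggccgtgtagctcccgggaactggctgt
The window held 3 CCAAT and 1 GGGCGG. The level of Mylip was 10.97 and 10.85 after Pam3CSK4 pretreatment followed by Pam3CSK4 and MDP, 9.76 and 11.01 after MDP pretreatment followed by the same ligands, 9.33 and 10.65 in naive cells given them, and 11.11 in unstimulated cells. The arrays given Pam3CSK4 without Pam3CSK4 pretreatment were the low ones, and the other 5 did not reach down to them. Naive Pam3CSK4 cells were 3.43-fold lower than unstimulated cells, and Pam3CSK4 then Pam3CSK4 cells 3.10-fold higher than naive Pam3CSK4 cells. MDP then Pam3CSK4 cells differed from naive Pam3CSK4 cells by 0.43, which is less than 2-fold.

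**Figure D3:**
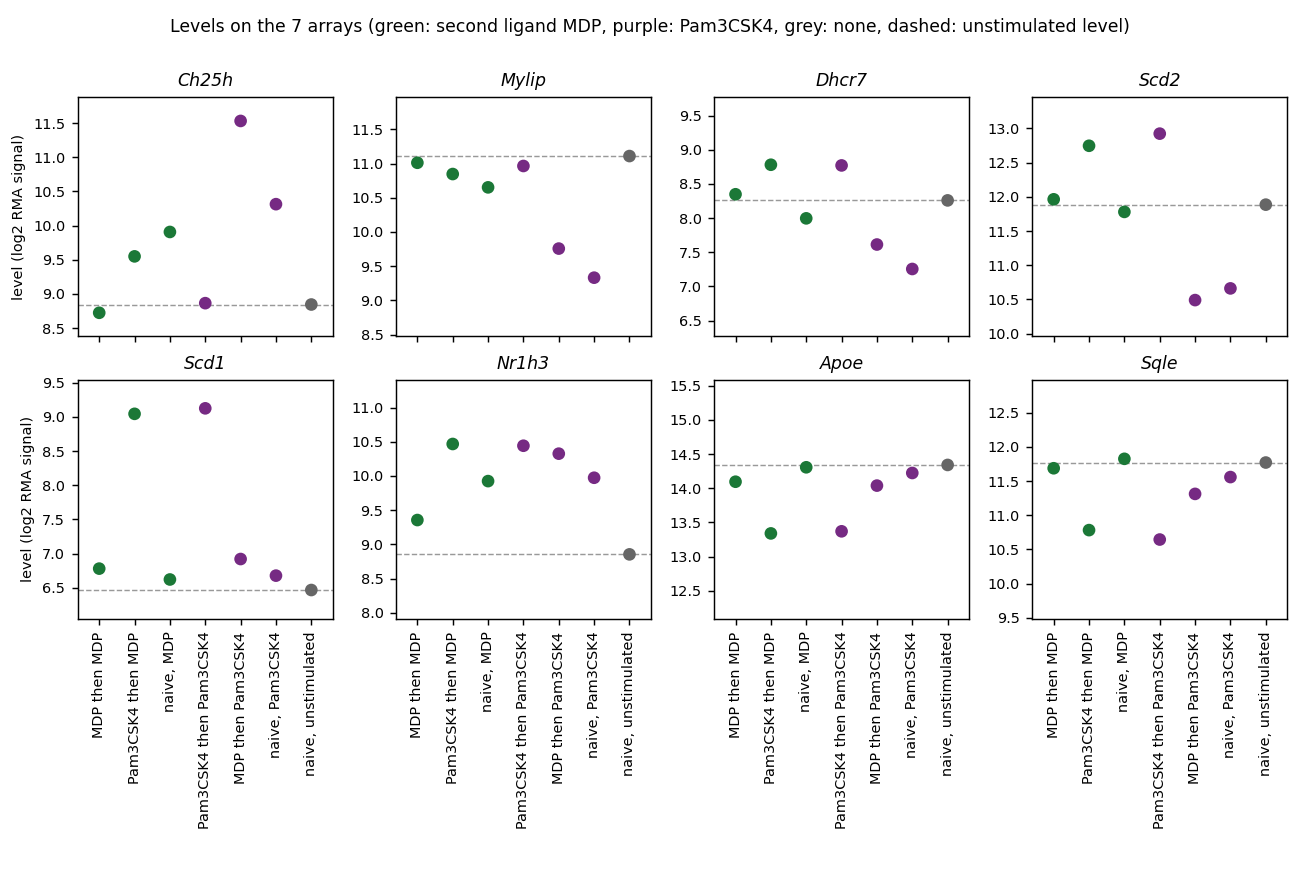
Levels (log2 RMA signal) of 8 genes on each of the 7 arrays, 1 point an array, each panel with an axis of the same length; colours give the second ligand and the dashed line the unstimulated level. Ch25h peaks at 11.53 on the MDP then Pam3CSK4 array, Mylip and Dhcr7 are lowest with naive Pam3CSK4, and Scd1 is at 9.12 and 9.04 on the Pam3CSK4-pretreated arrays and at 6.92 or lower on the others.

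Fatty acid synthesis was split between the desaturases and the rest. Stearoyl-CoA desaturases put the double bond into oleate and palmitoleate, and Scd1 and Scd2 are paralogs. Scd1 was at 9.12 and 9.04 after Pam3CSK4 pretreatment followed by Pam3CSK4 and MDP, 6.92 and 6.78 after MDP pretreatment followed by the same ligands, 6.68 and 6.62 in naive cells given them, and 6.47 in unstimulated cells. The Pam3CSK4-pretreated arrays stood apart from all others, 5.45-fold and 5.36-fold above naive cells with Pam3CSK4 and MDP. A second, dimmer Scd1 probe set gave 6.49 and 6.33 there and 4.46 to 4.62 elsewhere. The values elsewhere lay below the array medians of 5.48 to 5.55, so its differences are bounds only. Scd1 ranked 50 of 18193 genes by its difference between Pam3CSK4 then Pam3CSK4 and naive Pam3CSK4.

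Scd2 had a different pattern. It was at 12.92 and 12.75 after Pam3CSK4 pretreatment followed by Pam3CSK4 and MDP, 10.49 and 11.96 after MDP pretreatment followed by the same ligands, 10.66 and 11.78 in naive cells given them, and 11.89 in unstimulated cells. Like Mylip, it was lowest on the naive Pam3CSK4 and MDP then Pam3CSK4 arrays, 2.34-fold and 2.63-fold below unstimulated cells, whereas Scd1 was not lower there. It was 4.80-fold above naive Pam3CSK4 cells on the Pam3CSK4 then Pam3CSK4 array, where its 3 probe sets gave 2.25 to 2.52. With MDP the difference was 0.97, and it passed 2-fold under 2 alternative settings. Whether the probe sets of the paralogs share signal was not tested.

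The other fatty acid genes changed less. Acaca, acetyl-CoA carboxylase, was at 8.03 and 7.91 in Pam3CSK4-pretreated cells and at 7.33 to 7.70 elsewhere. Fasn, fatty acid synthase, ranged from 8.88 to 9.28 over the 7 arrays. Elovl6, which lengthens palmitate to stearate, was at 5.64 and 5.48 in Pam3CSK4-pretreated cells and at 5.92 to 6.49 elsewhere, and the 5.48 lay below its array's median, so that its difference from unstimulated cells is given as -0.96 or lower.

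Ch25h encodes cholesterol 25-hydroxylase. Its promoter is shown because the gene moved in most of the comparisons (chr19:34475099-34475398, minus strand, GRCm38.p6), and none of the 6 motifs was found in it, so it carries no capitals.
Ch25h: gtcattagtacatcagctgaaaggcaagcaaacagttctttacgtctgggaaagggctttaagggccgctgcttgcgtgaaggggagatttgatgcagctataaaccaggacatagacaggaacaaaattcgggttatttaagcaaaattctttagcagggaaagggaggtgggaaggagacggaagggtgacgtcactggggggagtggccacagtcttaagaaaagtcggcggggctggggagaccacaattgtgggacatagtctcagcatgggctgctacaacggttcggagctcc
No match says only that these letters are not in these 300 bases. The level of Ch25h was 8.87 and 9.55 after Pam3CSK4 pretreatment followed by Pam3CSK4 and MDP, 11.53 and 8.72 after MDP pretreatment followed by the same ligands, 10.31 and 9.91 in naive cells given them, and 8.85 in unstimulated cells. It was highest on the MDP then Pam3CSK4 array and nearest to the unstimulated level on the arrays given the same ligand again, at differences of 0.02 (Pam3CSK4) and -0.12 (MDP).

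A first exposure put Ch25h 2.77-fold (Pam3CSK4) and 2.09-fold (MDP) above unstimulated cells. MDP then MDP was 2.27-fold below naive MDP, and Pam3CSK4 then Pam3CSK4 2.73-fold below naive Pam3CSK4. MDP then Pam3CSK4 was 2.33-fold above naive Pam3CSK4, 6.43-fold above unstimulated cells and 7.0-fold above MDP then MDP. By the difference from naive Pam3CSK4 it ranked 32 of 18193 genes. Pam3CSK4 then MDP lay 0.36 below naive MDP, which is less than 2-fold. The same pretreatment with MDP thus stood beside a lower level under MDP and a higher one under Pam3CSK4, in 1 array each.

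Against unstimulated cells, 0 of the 34 genes were past 2-fold on the MDP then MDP array, beside 0.39% of all genes higher and 0.0385% lower. On the MDP then Pam3CSK4 array 2 were higher (Ch25h and Nr1h3) and 2 lower (Scd2 and Mylip), beside 3.03% and 1.8%. On the Pam3CSK4 then MDP array 2 were higher (Scd1 and Nr1h3) and 3 lower (Idi1, Elovl6 and Apoe), beside 2.78% and 2.59%. The bound for Elovl6 does not reach 2-fold, and all 3 lower genes lay between -0.96 and -0.97 with housekeeping centring, so that these calls rest on values at the threshold. On the Pam3CSK4 then Pam3CSK4 array 3 were higher (Scd1, Nr1h3 and Scd2) and 1 lower (Sqle), beside 2.66% and 2.29%. Between second ligands after MDP pretreatment, Pam3CSK4 against MDP, Ch25h was higher and Scd2 and Mylip lower, beside 2.41% and 1.42%. The ligands in naive cells, Pam3CSK4 against MDP, gave 0 higher and 2 lower (Mylip and Scd2), beside 1.4% and 0.709%.

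**Figure D4:**
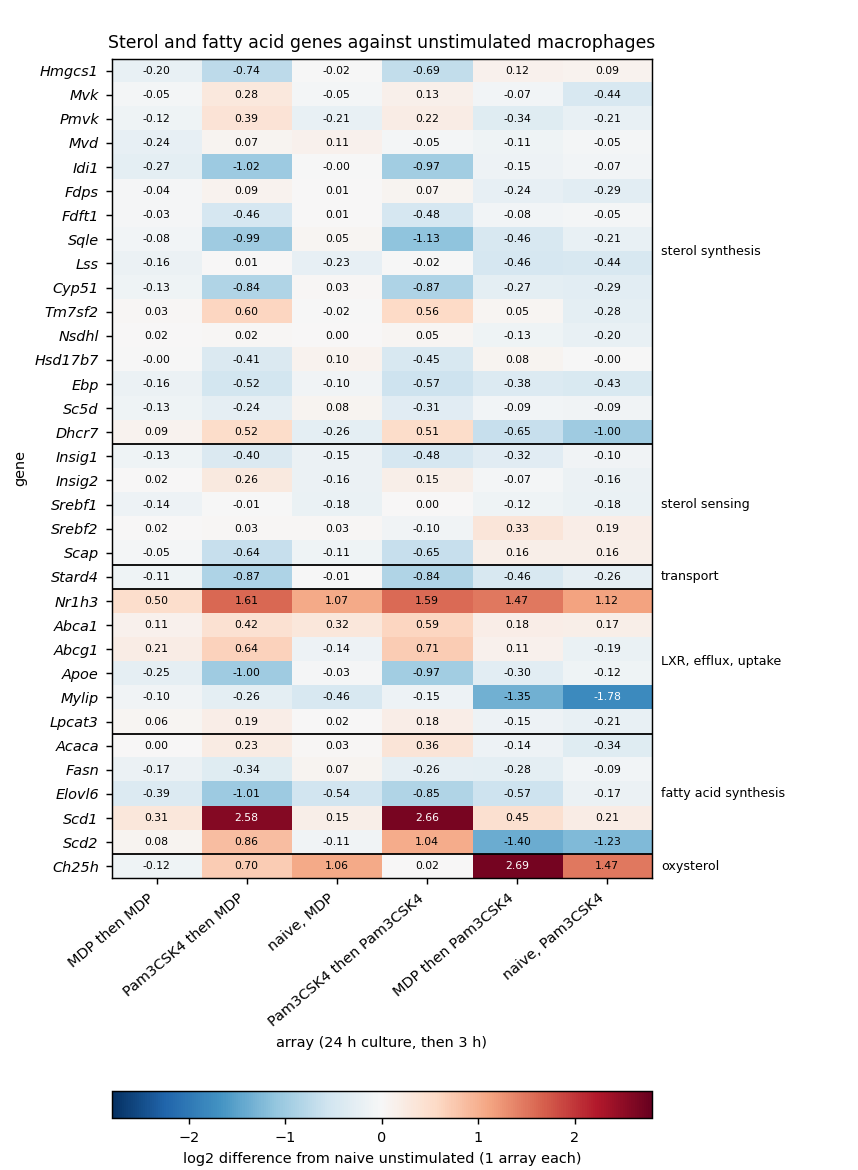
Log2 difference of each of the 34 genes (rows, by role) from the unstimulated array on the other 6 arrays (columns), printed in each cell, red higher and blue lower. The Pam3CSK4-pretreated columns resemble each other except for Ch25h (0.70 with MDP and 0.02 with Pam3CSK4 as second ligand). Scd1 (2.58 and 2.66) and Ch25h (2.69 on the MDP then Pam3CSK4 array) hold the highest values.

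The comparisons of Pam3CSK4 then MDP with naive MDP and of Pam3CSK4 then Pam3CSK4 with naive Pam3CSK4 share no array. In them 33 of the 34 genes had the same sign, against 61.1% of all genes, and the differences correlated at Pearson r = 0.89 over the 34 genes and 0.67 over all genes. All genes include many with little signal, while the 34 lay above the array median except Elovl6 on the Pam3CSK4 then MDP array. The values over all genes are therefore not like for like, and none was computed over brighter genes alone. Scd1, at 2.42 and 2.45, lay furthest from 0 in both comparisons and weighs heavily in the r of 0.89. An r without Scd1 was not computed, so the 0.89 does not describe the 34 genes as a group. For MDP pretreatment the matching pair, which shares no array either, gave the same sign for 17 of 34 genes, r = -0.38 over them and 0.39 over all genes. Ch25h, at -1.18 and 1.22, lay furthest from 0 in both comparisons and weighs most in the r of -0.38. An r without Ch25h was not computed, so that value does not describe the 34 genes as a group. Genes are not independent replicates, all arrays share a platform and a normalization, and these are descriptions.

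At 1.5-fold, Pam3CSK4 then MDP against naive MDP had 6 genes higher and 6 lower, beside 4.95% and 4.89% of all genes. Those lower were Sqle, Idi1, Apoe, Cyp51, Stard4 and Hmgcs1, and those higher were Scd1, Scd2, Dhcr7, Abcg1, Tm7sf2 and Pmvk, a kinase of the mevalonate steps. Pam3CSK4 then Pam3CSK4 against naive Pam3CSK4 had 7 higher and 7 lower, beside 6.77% and 5.25%.

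Other lipid genes give the setting. Of 45 measured genes of cholesterol handling, fatty acid synthesis, lipoproteins and lipid use, 0 were past 2-fold in naive MDP against unstimulated cells. The shares of all genes there were 0.583% higher and 0.17% lower. MDP then MDP against naive MDP also gave 0, beside 0.385% and 0.291%. MDP then Pam3CSK4 against naive Pam3CSK4 gave 0 as well, beside 0.297% and 0.022%. Naive Pam3CSK4 against unstimulated cells gave 1 higher and 3 lower, beside 2.27% and 1.95% of all genes. Pam3CSK4 pretreatment gave 3 higher and 1 lower with Pam3CSK4, beside 2.41% and 2.3%, and 4 higher and 2 lower with MDP, beside 2.14% and 1.71%. A count of 0 or 1 of 45 is close to these shares. The higher ones in both were Fads2, a desaturase of polyunsaturated fatty acids, Acss2, which makes acetyl-CoA from acetate, and Me1, which makes NADPH; Fads2 was at 9.0 and 9.18 in Pam3CSK4-pretreated cells and at 7.0 to 7.27 elsewhere. The one lower in both was Cyp27a1, sterol 27-hydroxylase, at 7.45 and 7.54 in Pam3CSK4-pretreated cells and at 9.40 to 9.79 elsewhere. Pparg, a nuclear receptor of lipid storage genes, differed by -2.16 on the log2 scale between naive Pam3CSK4 and unstimulated cells. It was as low on the other arrays that met Pam3CSK4. There it differed from unstimulated cells by -2.27 (MDP then Pam3CSK4), -2.02 (Pam3CSK4 then MDP) and -2.28 (Pam3CSK4 then Pam3CSK4). With naive MDP and MDP then MDP it differed by -0.85 and -0.27. Against naive MDP, Pam3CSK4 then MDP was also past 2-fold higher for Fabp4 (1.51) and lower for Pparg (-1.17).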

How the data were processed

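Total RNA was labelled as biotinylated cRNA and hybridised to Affymetrix mouse arrays, per the labels' protocols. The authors deposited log2 expression values per probe set that the submitters' processing notes credit to RMA and affy; versions, and which arrays were normalized together, are not given in the sources used here. The 45101 values per array ran from 2.95 to 15.1 with array medians of 5.48 to 5.55. None of scale, centring and direction stayed unknown: the values are log2, are not centred per gene, and rise with signal. RMA shares information across arrays and compresses differences of dim probe sets.

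Gene symbols came from the platform annotation: 34945 probe sets had 1 symbol, 932 several, 9160 none and 64 were controls. Each gene was represented by its brightest single-symbol probe set. Of the 34 genes 20 had several probe sets and 14 had 1. Differences were taken in 13 comparisons between single arrays, past 2-fold meaning at least 1 on the log2 scale. A value below its array's median gives a bound. Levels of different genes were not compared. With 1 array per group no error or p-value exists, and precision is limited by the number of arrays.

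The genes, lists and rules were chosen with earlier results of these data known. Values on every array are given for Ch25h, for the regulators Insig1, Srebf1 and Srebf2, for Abca1, Abcg1, Scd1 and Scd2, and for every gene past 2-fold in the first 6 comparisons; other genes named with values were chosen after these were seen. Promoters are RefSeq windows (GRCm38.p6) matched by symbol, and a missing entry is named only: Abcg1, Fdft1, Fdps, Scd1, Scd2, Sqle and Stard4. Alternatives were median and housekeeping centring, a further quantile normalization, averaging all probe sets of a gene, dropping probe sets of lower specificity, a filter on dim genes, adding 32 to linear values, and thresholds of 1.5-fold and 3-fold. Counting was tested on simulated data. Python 3.11.15, numpy 2.4.6, pandas 2.3.3 and matplotlib 3.10.9 were used.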

Additional observations from a re-analysis of the deposited data

Results flagged for a closer look

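Ch25h had effects of opposite direction, each past 2-fold, under the same kind of contrast, and the difference was not tested because each group has 1 array. Relative to naive Pam3CSK4 cells it was 1.22 higher after MDP pretreatment and differed by -1.45 after Pam3CSK4 pretreatment on the log2 scale, a difference of 2.67 between the effects of the 2 pretreatments. Relative to naive cells given the same ligand, MDP pretreatment stood beside a difference of -1.18 under MDP and of 1.22 under Pam3CSK4, so that the effects differed by -2.40. In each of these pairs of comparisons 2 of 18193 genes (0.0110%) had opposite effects past 2-fold.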

How the results depend on the processing

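No paired analysis was possible because each group has 1 array and all labels carry replicate number 2, and for the same reason no array could be left out of a group. Of 117 counts of genes past the threshold under 9 alternatives, 96 stayed within 1.5 times the value given and 21 moved. At 1.5-fold the counts were 12 for Pam3CSK4 then MDP and 14 for Pam3CSK4 then Pam3CSK4 against naive cells with the same ligand, 14 and 13 for the same arrays against unstimulated cells, 1 between them, and 5 for MDP then Pam3CSK4 against MDP then MDP. At 3-fold the same comparisons gave 1, 3, 2, 2, 0 and 1; naive MDP and naive Pam3CSK4 against unstimulated cells gave 0 and 1, MDP then MDP against naive MDP 0, MDP then Pam3CSK4 against naive Pam3CSK4 0 and against unstimulated cells 1, and naive Pam3CSK4 against naive MDP 0. These changes follow from the threshold itself. Shares of all genes at 1.5-fold were computed only for the comparisons of Pam3CSK4-pretreated with naive cells, and none at 3-fold. The other counts at these thresholds therefore do not set the 34 genes apart. Pam3CSK4 then MDP against unstimulated cells gave 2 in place of 5 with 32 added and 2 with housekeeping centring, in both losing Idi1, Elovl6 and Apoe. Leaving out less specific probe sets left 30 genes, with 3 there and 1 for naive MDP against unstimulated cells. Of 456 values of the 13 genes given on every array, in 6 comparisons, none reversed and 9 crossed 2-fold. They were Idi1 in Pam3CSK4 then MDP against naive MDP (-0.99, -0.98 and -0.996), Dhcr7 in naive Pam3CSK4 against unstimulated cells (-0.96, -0.96, -0.87 and -0.87) and Scd2 in Pam3CSK4 then MDP against naive MDP (1.18 and 1.00). Over all 34 genes and 13 comparisons there were 20 crossings, 14 lost and 6 gained; the gains outside those 6 comparisons were Scd2 (1.08, Pam3CSK4 then MDP against unstimulated) and Nr1h3 (1.03 at most, MDP then Pam3CSK4 against MDP then MDP), and Apoe reached -1.01 in Pam3CSK4 then MDP against naive MDP. Signal near the array median limits Elovl6.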
